A study of Homo sapiens with 8 samples.

Results

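Potassium channel genes were followed in 2D human intestinal epithelial cells (hIECs), a monolayer differentiated from the human embryonic stem cell line H9, with or without pro-inflammatory cytokines and with or without PM10, airborne particulate matter. The genes were all protein-coding rows whose symbol begins with KCN, followed by letters and a number. They came to 96 of the 19957 protein-coding genes and of 60558 genes in all. Another 20 rows with such symbols were not protein-coding and were left out. The 8 libraries fell into 4 groups of 2, all of day 10. Normal hIECs received neither agent, and normal hIECs with PM10 received 100 µg/ml of PM10 for the last 7 days. Inflamed hIECs received IFNγ and TNFα at 50 ng/ml each for 10 days, and inflamed hIECs with PM10 received the cytokines and PM10 on the same schedules. All cells came from 1 stem cell line, and the culture held no immune cells.

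Potassium channels let K+ leave or enter the cell along its electrochemical gradient, which holds the resting potential and, in excitable cells, ends the action potential. In an intestinal epithelium, K+ exit hyperpolarizes the cell and drives chloride secretion and sodium-coupled uptake, while the Na+/K+ pump restores the gradient. Voltage-gated, calcium-activated, inwardly rectifying and 2-pore-domain channels form pores of their own, silent subunits modify voltage-gated pores, and auxiliary subunits set the gating or surface level of a pore.

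Levels are given as FPKM, which is scaled to gene length and library size, so levels of different genes can be compared. Differences are on the scale log2(FPKM + 1), which understates the change of a gene near or below 1 FPKM. They were tested with limma over all 8 libraries, with p-values adjusted over the 14206 genes that reached 1 FPKM in at least 2 libraries and called under 0.05. The labels do not say whether the 2 libraries of a group came from separate cultures, so p-values measure only the spread between these libraries, and an exact permutation test of 2 against 2 cannot go below 0.333. The lowest FPKM above 0 was between 0.164 and 0.229 in each library, and a gene below that is listed at 0. The 20 housekeeping genes examined were above 0 in every library, with a lowest value of 3.90 FPKM. The mitochondrial genome's genes held 17.02% and 24.2% of summed FPKM in normal hIECs, and 15.5% to 20.4% in the other groups.

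The label of the cells was set beside marker genes. KRT8 and KRT18 stood above 100 FPKM in every library, but 4 of 11 epithelial markers (CDX2, CLDN7, KRT20 and VIL1) were at 0 throughout, CDH1 was at 0 in 7 of 8 libraries, and EPCAM did not pass 0.622 FPKM. Of 8 mature enterocyte markers, 7 were at 0 throughout. All 8 mesenchymal markers, 5 of 6 smooth muscle markers and 7 of 10 neuronal markers were above 0 in at least 1 library. The cells are therefore called hIECs as the study names them, and the channel genes are values of the whole culture. In bulk RNA, fewer cells of a type and less RNA per cell cannot be told apart.

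Of the 96 genes, 48 were listed at 0 FPKM in all 8 libraries, beside 27.1% of the protein-coding genes. Another 26 were above 0 somewhere but below the minimum for testing, and 22 were tested. Voltage-gated channels had the most genes at 0 throughout, 18 of 30, among them KCNA2, KCNA3, KCNA4, KCNA7, KCNA10, KCNB2, KCNC1, KCNC4, KCNH4, KCNH5, KCNH6, KCNH7, KCNH8, KCNQ1, KCNQ3 and KCNQ5. KCNQ1 carries basolateral K+ current in crypt epithelium with KCNE3, and both were at 0 throughout. KCNN4, the intermediate-conductance calcium-activated channel of intestinal epithelium, was also at 0 throughout, together with KCNN2, KCNT1 and KCNU1, which made 4 of 8 calcium- or sodium-activated channels. The inward rectifiers at 0 were 8 of 16, namely KCNJ1, KCNJ3, KCNJ9, KCNJ10, KCNJ12, KCNJ13, KCNJ16 and KCNJ18. The 2-pore-domain channels at 0 were 7 of 15, namely KCNK4, KCNK7, KCNK9, KCNK10, KCNK16, KCNK17 and KCNK18. The silent modifiers at 0 were 6 of 10, namely KCNG2, KCNG3, KCNG4, KCNS2, KCNV1 and KCNV2. The auxiliary subunits were the class with the smallest part at 0, 5 of 17, namely KCNE1, KCNE1B, KCNE2, KCNE3 and KCNMB3. KCNE1 and KCNE1B, and likewise KCNJ12 and KCNJ18, are near-identical copies, so the 0 of each is uncertain. GENCODE 44 lists KCNE1B as an artifact and not as a protein-coding gene. Some other genes at 0, such as KCNH7, KCNJ13 and KCNMB3, have exons that overlap those of genes above 0.

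**Figure D1:**
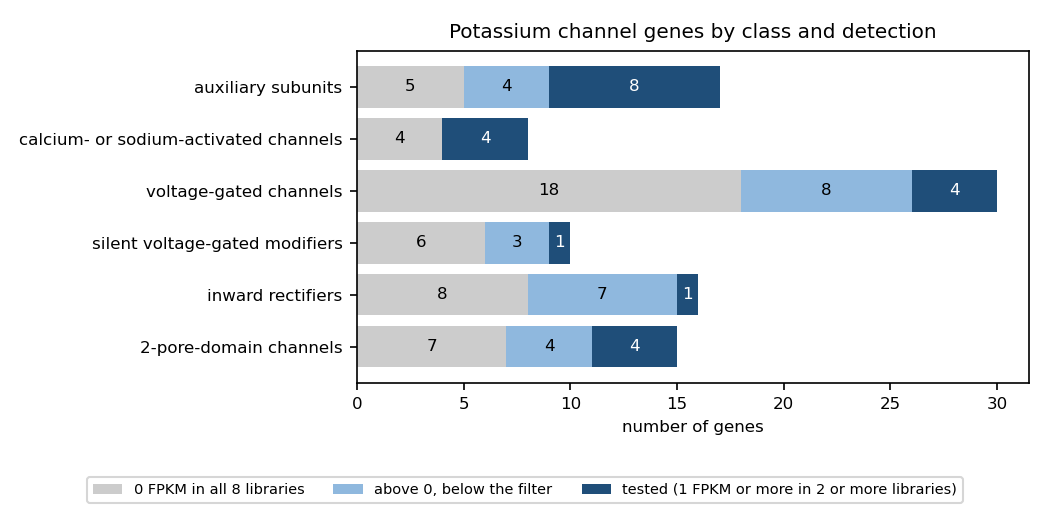
Bars give the number of potassium channel genes in each of 6 classes, divided into genes listed at 0 FPKM in all 8 libraries, genes above 0 but below the filter, and tested genes. Of 30 voltage-gated channel genes 18 were at 0 and 4 were tested, whereas 8 of 17 auxiliary subunit genes were tested.

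The channel genes together summed to 98.7 and 98.1 FPKM in normal hIECs, 93.8 and 97.9 in normal hIECs with PM10, 79.7 and 83.3 in inflamed hIECs, and 99.0 and 100.8 in inflamed hIECs with PM10. The gene at the top of the family differed by group. KCNMB4, a beta subunit of the BK channel, was the highest in all 4 libraries without cytokines. KCNK2, the mechanosensitive 2-pore channel TREK-1, was the highest in both inflamed libraries. KCNE4, an auxiliary subunit that inhibits several voltage-gated channels, was the highest in both inflamed libraries with PM10. Between 35 and 41 of the 96 genes were above 0 in the libraries without cytokines and 28 or 29 in those with cytokines. Of all 60558 genes, 17806 to 18926 were above 0 in the former and 16547 to 17263 in the latter. Normal library 1, with 41 channel genes above 0, had the lowest FPKM above 0 (0.164) and the most genes above 0.

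**Figure D2:**
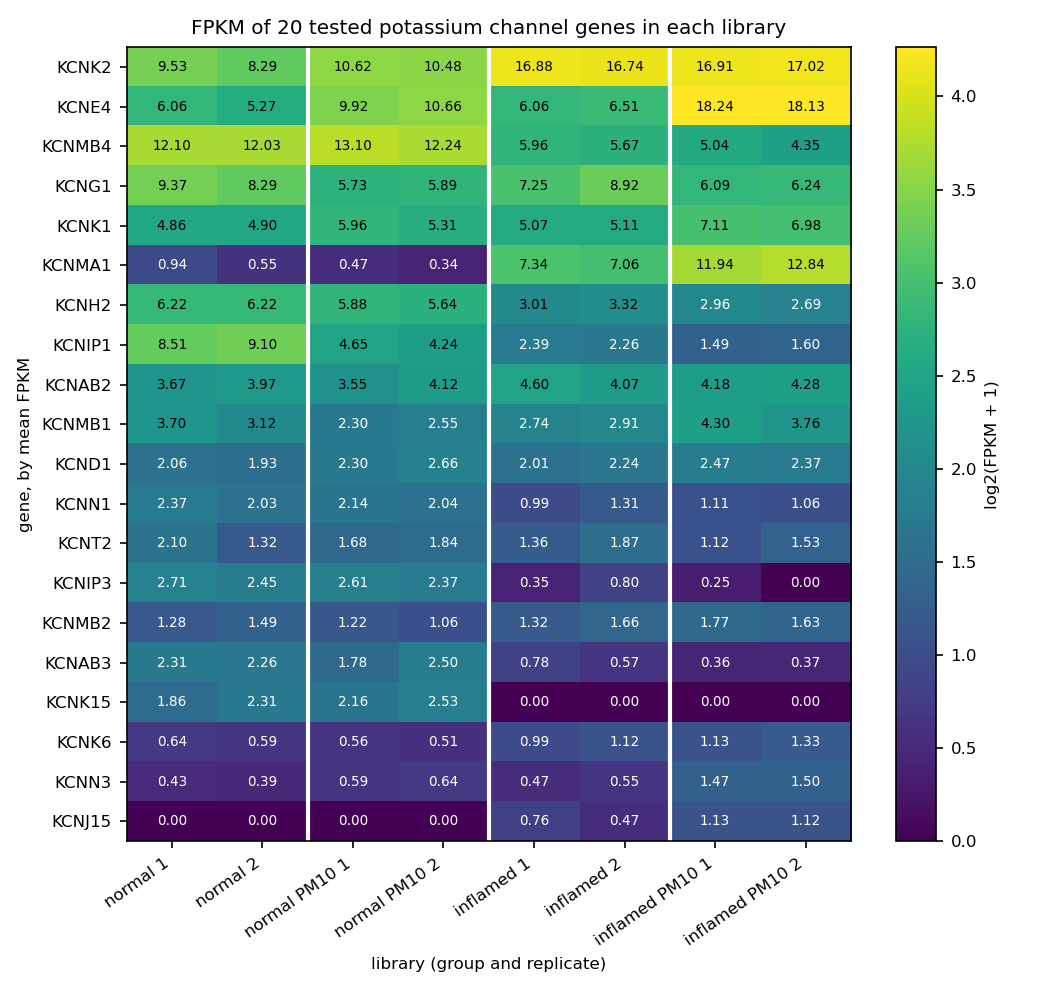
Each row is 1 of 20 tested genes and each column 1 library, with the FPKM written in the cell and log2(FPKM + 1) as the colour. KCNMA1 lay at 0.938 FPKM or lower in the 4 libraries without cytokines and at 7.06 or higher in the 4 with them, whereas KCNK15 was above 0 only in those without.

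The first question was how the cytokines changed the channel genes. Without PM10, 4 genes rose (KCNMA1, KCNK2, KCNJ15 and KCNK6) and 8 fell, among them KCNK15, KCNIP1, KCNIP3, KCNAB3, KCNMB4, KCNH2 and KCNN1. Of all genes tested, 25.9% rose and 30.3% fell in this comparison. With PM10 in both groups, 9 rose and 8 fell, against 25.8% and 39.6% of all genes tested. The 8 that fell were the same genes in both comparisons, and the 4 that rose without PM10 rose with it too. KCNE4, KCNK1, KCNMB1, KCNMB2 and KCNN3 were called higher with PM10 present but not without it. The median difference over the 22 channel genes was -0.08 without PM10 and 0.03 with it, beside -0.03 and -0.11 over all genes tested. KCNMA1, KCNK6, KCNN3, KCNJ15, KCNK15, KCNIP3 and KCNAB3, among others, reached the minimum for testing only through the groups in which they were high, so these counts and medians describe the tested genes and not the family. Between libraries without and with cytokines, summed neuronal markers went from 208–235 to 126–142 FPKM. Summed epithelial markers went from 598–652 to 287–352 and summed smooth muscle markers from 1287–1700 to 2441–2493. The epithelial sum was nearly all KRT8 and KRT18, and the smooth muscle sum nearly all ACTA2 and TAGLN. CNN1 was not called without PM10 (-0.10, limma adjusted p = 0.211) and rose with it (0.38, limma adjusted p = 0.00103), and MYH11 was at 0 throughout. SYT1 rose (0.72 without PM10, limma adjusted p = 0.00012), while the other neuronal markers tested fell. The part of these markers in the channel results was not tested.

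**Figure D3:**
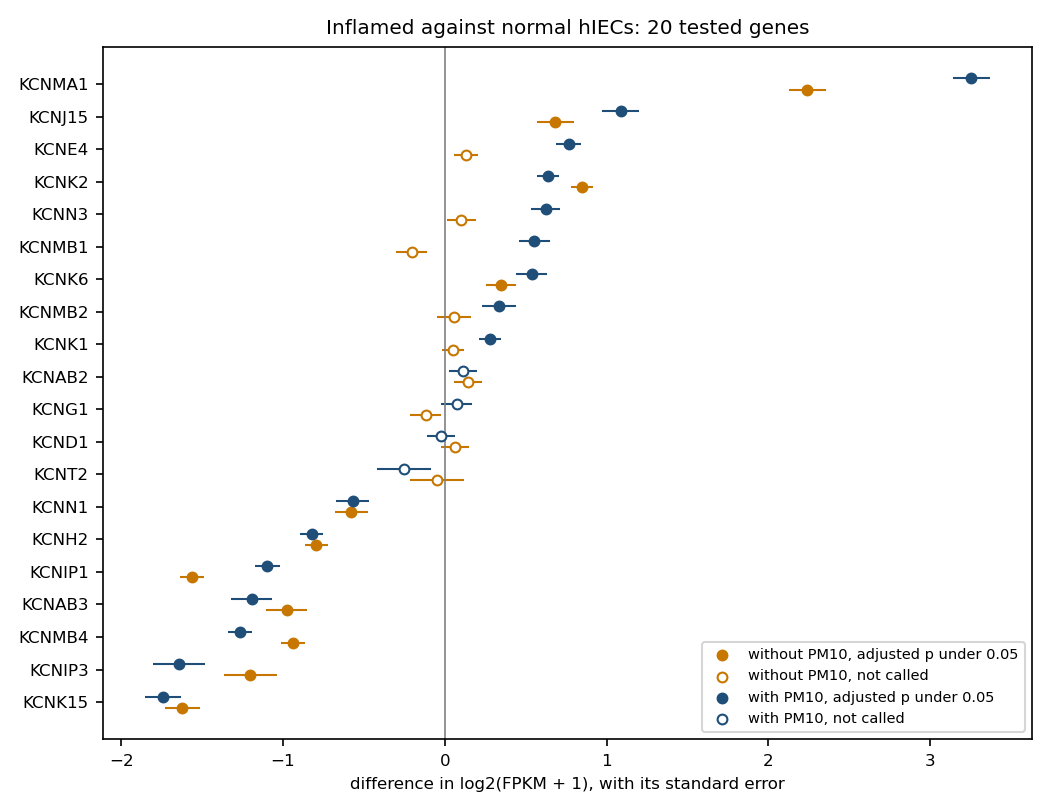
Points give the difference in log2(FPKM + 1) of inflamed against normal hIECs for each of 20 tested genes, without PM10 (orange) and with PM10 in both groups (blue). Lines are standard errors and filled points have an adjusted p under 0.05. KCNMA1 lies farthest to the right, at 2.24 without PM10 and 3.25 with it, and KCNK15 farthest to the left, at -1.62 and -1.74.

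KCNMA1, the pore of the large-conductance calcium- and voltage-activated BK channel, had the largest rise of the family. Its level was 0.938 and 0.551 FPKM in normal hIECs, 0.472 and 0.337 with PM10, 7.34 and 7.06 in inflamed hIECs, and 11.9 and 12.8 in inflamed hIECs with PM10. The lowest library with cytokines was above the highest without, and only the libraries with cytokines brought the gene over the minimum for testing. The mean was 9.67 times as high in inflamed as in normal hIECs, a difference of 2.24 (SE 0.12, limma adjusted p = 4.58e-06). With PM10 in both groups the mean was 30.6 times as high, a difference of 3.25 (SE 0.12, adjusted p = 5.05e-07). That ratio rests on a mean of 0.405 FPKM in normal hIECs with PM10, near the lowest listed values, so its size is uncertain. KCNMA1 lies at chr10:76869601-77638369 on the minus strand (GRCh38, GENCODE 44), and its exons overlap those of KCNMA1-AS1, which was at 0. RefSeq (GRCh38.p14) gives it 2 start sites. The 250 bases before the outer start had 85.6% G and C and overlap a first exon in GENCODE, so they are not printed. The 250 bases before the inner start had 53.6% G and C and are shown because KCNMA1 had the largest change, 5′ to 3′ on the gene's strand.
KCNMA1 promoter, chr10:77350762-77351011, minus strand: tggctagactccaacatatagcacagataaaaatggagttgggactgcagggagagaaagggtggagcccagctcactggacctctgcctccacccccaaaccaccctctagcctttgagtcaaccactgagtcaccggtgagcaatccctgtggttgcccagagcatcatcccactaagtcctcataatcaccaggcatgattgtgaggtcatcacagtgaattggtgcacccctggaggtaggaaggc

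In that sequence and in those of KCNIP1 and KCNK2 given further on, 4 motifs were searched on both strands, and a match is in capitals. The motifs were TTCNNNGAA (the GAS site of interferon-γ signaling), GAAA followed after any 2 bases by GAAA (an interferon-stimulated response element), GCGTG (the core site of the aryl hydrocarbon receptor, which binds components of particulate matter) and the NF-kB consensus, and matches of different motifs may overlap. Promoters were found for 71 of the 96 genes, 109 start sites in all. The GAS letters were in 1 of these 109 promoters (0.917%) and in 6.57% of all 35116 promoters, and the response element was also in 1 (0.917%) against 3.02%. GCGTG was in 29 (26.6%) against 32.2%, and the NF-kB consensus in 13 (11.9%) against 9.96%. The median G and C content was 64.0% in channel promoters and 58.0% in all. Neither KCNMA1 promoter held any of the 4 motifs, which says only that these letters are not in these windows.

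The beta subunits of the BK channel, which set its calcium sensitivity and its time course, each had a pattern of their own. KCNMB4, the beta subunit best known from neurons, stood at 12.1 and 12.03 FPKM in normal hIECs, 13.1 and 12.2 with PM10, 5.96 and 5.67 in inflamed hIECs, and 5.04 and 4.35 in inflamed hIECs with PM10. All 4 libraries with cytokines were below all 4 without. The difference was -0.94 (SE 0.08, limma adjusted p = 4.18e-05) without PM10 and -1.26 (SE 0.08, adjusted p = 6.52e-06) with it. KCNMB1, the beta subunit best known from smooth muscle, was at 3.702 and 3.13 FPKM in normal hIECs, 2.30 and 2.55 with PM10, 2.74 and 2.91 in inflamed hIECs, and 4.30 and 3.76 in inflamed hIECs with PM10. Its libraries with and without cytokines overlapped, and its difference was -0.20 (adjusted p = 0.108) without PM10 and 0.55 (adjusted p = 0.00161) with it. KCNMB2, which inactivates BK channels, ranged from 1.06 to 1.77 FPKM and was called only with PM10, at 0.33 (adjusted p = 0.023). That call was lost without normal PM10 library 2 (0.28, adjusted p = 0.111), inflamed PM10 library 1 (0.30, adjusted p = 0.104) or inflamed PM10 library 2 (0.37, adjusted p = 0.0541). The summed FPKM of the beta subunits was 18.2 to 47.0 times that of KCNMA1 in the libraries without cytokines and 0.758 to 1.45 times in those with them. KCNMA1 was below 1 FPKM in the former, so the size of their ratios is uncertain. KCNMB4 made up 70.8% to 78.8% of the beta sum without cytokines, 59.4% and 55.4% in inflamed hIECs, and 45.4% and 44.7% in inflamed hIECs with PM10.

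**Figure D4:**
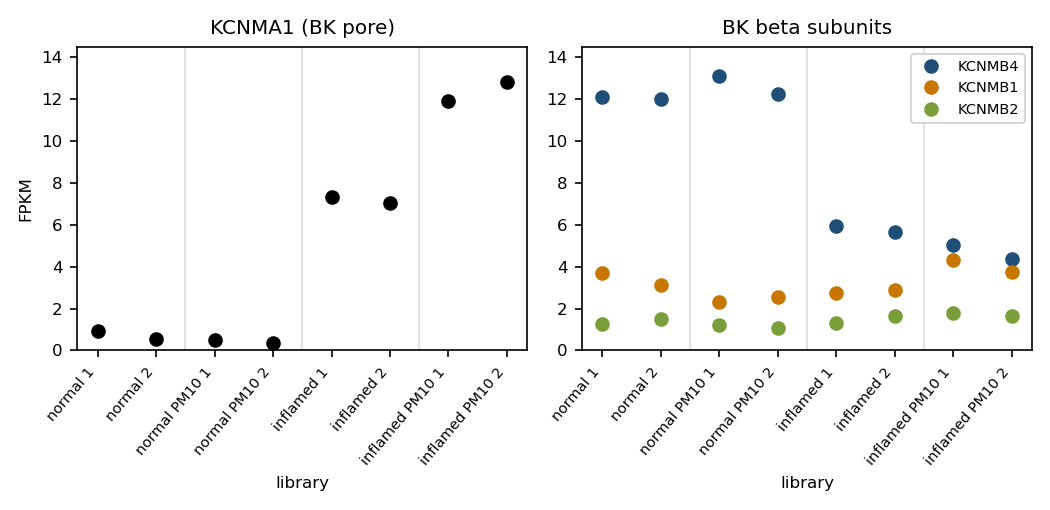
FPKM of the BK pore gene KCNMA1 (left) and of the beta subunit genes KCNMB4, KCNMB1 and KCNMB2 (right) in each of the 8 libraries, 1 point per library. KCNMA1 is below 1 FPKM in the 4 libraries without cytokines and above 7 in the 4 with them, while KCNMB4 is at 12.03 or higher in the former and 5.96 or lower in the latter.

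The other calcium- and sodium-activated channels were low. KCNN1, the small-conductance SK1 channel, was at 2.37 and 2.03 FPKM in normal hIECs, 2.14 and 2.04 with PM10, 0.992 and 1.31 in inflamed hIECs, and 1.11 and 1.06 in inflamed hIECs with PM10. It fell with the cytokines by 0.58 without PM10 (limma adjusted p = 0.00228) and by 0.57 with it (adjusted p = 0.00196), with no overlap between the groups. KCNT2, a sodium-activated channel, ranged from 1.12 to 2.10 FPKM, its groups overlapped, and it passed the test in none of the 5 comparisons. KCNN3, the SK3 channel, was at 0.430 and 0.390 FPKM in normal hIECs, 0.587 and 0.642 with PM10, and 0.475 and 0.553 in inflamed hIECs, but at 1.47 and 1.499 in inflamed hIECs with PM10, which alone brought it over the minimum for testing. The call for the cytokines with PM10 was 0.62 (adjusted p = 0.000655). Without PM10 it was 0.10 (adjusted p = 0.369), but under quantile normalization 0.32 (adjusted p = 0.0207).

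Among the 2-pore-domain channels, which carry the background K+ current, KCNK2 led. Its level was 9.53 and 8.29 FPKM in normal hIECs, 10.6 and 10.5 with PM10, 16.9 and 16.7 in inflamed hIECs, and 16.9 and 17.02 in inflamed hIECs with PM10. All libraries with cytokines were above all without. The mean was 1.89 times as high in inflamed as in normal hIECs, a difference of 0.85 (SE 0.07, limma adjusted p = 4.17e-05), and with PM10 the difference was 0.64 (SE 0.07, adjusted p = 0.000131). KCNK1, the TWIK-1 channel, stood at 4.86 and 4.90 FPKM in normal hIECs, 5.96 and 5.31 with PM10, 5.07 and 5.11 in inflamed hIECs, and 7.11 and 6.98 in inflamed hIECs with PM10. It differed by 0.05 (adjusted p = 0.547) with the cytokines alone and by 0.28 (adjusted p = 0.00822) with PM10, and the latter call was lost without normal PM10 library 2 (0.21, adjusted p = 0.0594). KCNK6, the TWIK-2 channel, ranged from 0.514 to 0.642 FPKM without cytokines and from 0.985 to 1.328 with them, which alone brought it over the minimum for testing. Its rise was 0.35 (adjusted p = 0.0169) without PM10 and 0.54 (adjusted p = 0.00185) with it, and the former was lost without normal library 2 (0.32, adjusted p = 0.0571) or inflamed library 2 (0.30, adjusted p = 0.086). KCNK15, a TASK-like channel, was at 1.86 and 2.31 FPKM in normal hIECs and 2.16 and 2.53 with PM10, and was listed at 0 in all 4 libraries with cytokines. Its differences were -1.62 (adjusted p = 1.86e-05) and -1.74 (adjusted p = 8.84e-06). KCNK15 is uncertain, since its exons overlap those of KCNK15-AS1 and RIMS4, and the libraries did not keep strand. KCNK15-AS1 was at 0.288 to 1.31 FPKM in the 4 libraries without cytokines and at 0 in the 4 with them, and RIMS4 at 0.907 to 1.03 FPKM without and at 0 in 3 of the 4 with them. Reads of these genes and of KCNK15 cannot be told apart where they overlap. KCNK3, a TASK acid-sensitive channel below the minimum for testing, was above 0 only in inflamed hIECs with PM10, at 0.402 and 0.314 FPKM. KCNK5 was above 0 in every library, between 0.251 and 0.432 FPKM, and KCNK12 and KCNK13 were above 0 in 1 library each.

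KCNK2 lies at chr1:215005775-215237090 on the plus strand. Its 2 RefSeq promoters (GRCh38.p14), 250 bases each, are shown because it was the highest 2-pore channel in every library, and the capitals mark a match to GCGTG that begins at base -32 from the start.
KCNK2 promoter, chr1:215005292-215005541, plus strand: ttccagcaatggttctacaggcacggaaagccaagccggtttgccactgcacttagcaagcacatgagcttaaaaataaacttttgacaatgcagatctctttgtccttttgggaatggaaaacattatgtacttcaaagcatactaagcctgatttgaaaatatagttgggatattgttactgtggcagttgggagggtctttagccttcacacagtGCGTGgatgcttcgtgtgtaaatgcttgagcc
KCNK2 promoter, chr1:215082487-215082736, plus strand: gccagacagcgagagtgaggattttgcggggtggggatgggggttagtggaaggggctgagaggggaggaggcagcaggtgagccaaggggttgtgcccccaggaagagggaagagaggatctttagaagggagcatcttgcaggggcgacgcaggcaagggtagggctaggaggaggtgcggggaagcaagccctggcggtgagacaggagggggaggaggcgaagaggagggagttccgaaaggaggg

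The inner promoter of KCNK2, with 63.6% G and C against 42.8% in the outer, held none of the 4 motifs.

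Voltage-gated channels that form pores fell or did not pass the test, and none of the 4 tested rose. KCNH2, the hERG channel that repolarizes heart and smooth muscle cells, was at 6.22 and 6.22 FPKM in normal hIECs, 5.88 and 5.64 with PM10, 3.01 and 3.32 in inflamed hIECs, and 2.96 and 2.69 in inflamed hIECs with PM10. The groups did not overlap, and the inflamed mean was 0.509 of the normal mean without PM10 (limma adjusted p = 7.81e-05) and 0.49 with it (adjusted p = 4.75e-05). KCND1, which carries A-type current, ranged from 1.93 to 2.66 FPKM and passed the test in none of the 5 comparisons.

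The 8 low voltage-gated channels did not pass 0.657 FPKM in any library. KCNC2 (0.249 to 0.637 FPKM) and KCND2 (0.320 to 0.388 FPKM) were above 0 in all 4 libraries without cytokines and at 0 in all 4 with them. KCNH1, the EAG1 channel, was the reverse, at 0 without cytokines and at 0.473 to 0.657 FPKM with them. KCNA1, KCNA6 and KCND3 were above 0 in 1 library each, KCNH3 in the 2 normal libraries, and KCNA5 in 3 libraries without cytokines.

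Silent modifiers do not conduct alone but alter the gating of other voltage-gated subunits. KCNG1 was at 9.37 and 8.29 FPKM in normal hIECs, 5.73 and 5.89 with PM10, 7.25 and 8.92 in inflamed hIECs, and 6.09 and 6.24 in inflamed hIECs with PM10. It differed little with the cytokines, by -0.12 (adjusted p = 0.335) and 0.07 (adjusted p = 0.533). KCNS3 was below the minimum for testing, at 0.236 and 0.278 FPKM in normal hIECs, 0 in both libraries with PM10, 0.675 and 0.783 in inflamed hIECs, and 0.958 and 0.964 in inflamed hIECs with PM10, so that the libraries with cytokines did not overlap those without. KCNS1 and KCNF1 were above 0 in 3 libraries without cytokines each and in none with them, at no more than 0.452 and 0.303 FPKM.

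Inward rectifiers, which clamp the cell near the K+ equilibrium potential, were nearly all low, and 1 of 16 was tested. KCNJ15, the Kir4.2 channel, was listed at 0 in all 4 libraries without cytokines and stood at 0.761 and 0.466 FPKM in inflamed hIECs and 1.13 and 1.12 in inflamed hIECs with PM10. The differences of 0.68 (limma adjusted p = 0.00193) and 1.09 (adjusted p = 0.000139) carry no fold, and only the libraries with PM10 and cytokines brought the gene over the minimum. KCNJ15 is uncertain, as its exons overlap those of DSCR8, which was at 0. KCNJ4, KCNJ6 and KCNJ11 had the opposite pattern, with 0.706 to 1.01, 0.490 to 0.705 and 0.348 to 0.455 FPKM in the libraries without cytokines and 0 in all 4 with them. KCNJ6 is a G-protein-gated GIRK channel and KCNJ11 a pore of ATP-sensitive channels. Of the 2 sulfonylurea receptors of such channels, ABCC8 was at 0 throughout. The other, ABCC9, was at 0.223 to 0.287 FPKM in the libraries without cytokines, near the lowest listed values, and at 0 in all 4 with them. KCNJ8, the pore of the vascular ATP-sensitive channel, was above 0 in every library, between 0.283 and 0.907 FPKM. KCNJ14 was above 0 in 7 libraries and reached 0.345 FPKM, KCNJ5 was above 0 in 3 and KCNJ2 in 1.

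Of the 96 genes, 48 were above 0 in at least 1 library. Of these 48, 7 were above 0 in the 4 libraries without cytokines and at 0 in the 4 with them. KCNC2, KCND2, KCNJ4, KCNJ6, KCNJ11 and KCNK15 were among them. That pattern was found in 2.54% of the 21400 genes above 0 anywhere. KCNH1 and KCNJ15 had the reverse pattern, which 0.776% of those genes had. KCNC2, KCND2, KCNJ4, KCNJ6 and KCNJ11 did not pass 1.01 FPKM in any library, so the step between 0 and their listed values is small.

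Among the auxiliary subunits outside the BK channel, KCNIP1, KCNIP3 and KCNAB3 fell with the cytokines. KCNIP1, a calcium-binding partner of KCND channels, was at 8.51 and 9.10 FPKM in normal hIECs, 4.65 and 4.24 with PM10, 2.39 and 2.26 in inflamed hIECs, and 1.49 and 1.60 in inflamed hIECs with PM10. The 4 groups did not overlap and stood in that order. The inflamed mean was 0.264 of the normal mean, a difference of -1.56 (SE 0.07, limma adjusted p = 3.32e-06), and with PM10 it was 0.348, a difference of -1.10 (SE 0.07, adjusted p = 1.33e-05). KCNIP3, of the same family and also known as a calcium-dependent transcriptional repressor, was at 2.71 and 2.45 FPKM in normal hIECs, 2.61 and 2.37 with PM10, 0.347 and 0.798 in inflamed hIECs, and 0.247 and 0 in inflamed hIECs with PM10. It fell by 1.20 (adjusted p = 0.000589) without PM10 and by 1.64 (adjusted p = 8.94e-05) with it. KCNAB3, a cytoplasmic beta subunit of KCNA channels, was at 2.31 and 2.26 FPKM in normal hIECs, 1.78 and 2.50 with PM10, 0.777 and 0.572 in inflamed hIECs, and 0.363 and 0.368 in inflamed hIECs with PM10. It fell by 0.98 (adjusted p = 0.000459) and by 1.19 (adjusted p = 0.000126). KCNAB2, of the same family, ranged from 3.55 to 4.60 FPKM, its exons overlap those of NPHP4 (1.74 to 3.02 FPKM over the 8 libraries), and it passed the test in none of the 5 comparisons. Of the low auxiliary genes, KCNIP2 ranged from 0.321 to 1.42 FPKM and KCNAB1 reached 0.543, KCNE5 0.336 and KCNIP4 0.358.

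KCNIP1 lies at chr5:170353487-170736632 on the plus strand, and KCNMB1 lies within it on the minus strand, at chr5:170374671-170389634. The exons of KCNIP1 overlap those of KCNIP1-AS1 and the exons of KCNMB1 those of KCNIP1-OT1, both at 0, but not each other. The exons of KCNAB3, KCNG1 and KCNMB2 also overlap those of genes at 0. The 2 RefSeq promoters of KCNIP1 (GRCh38.p14), 250 bases each, are shown because it was the only channel gene called in all 5 comparisons. Neither held any of the 4 motifs, so there are no capitals.
KCNIP1 promoter, chr5:170353237-170353486, plus strand: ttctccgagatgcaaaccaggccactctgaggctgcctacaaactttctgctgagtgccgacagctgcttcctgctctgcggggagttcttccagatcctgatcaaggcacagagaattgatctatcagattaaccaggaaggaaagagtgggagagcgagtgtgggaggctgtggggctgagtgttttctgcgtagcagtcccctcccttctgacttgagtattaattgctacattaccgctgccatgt
KCNIP1 promoter, chr5:170503770-170504019, plus strand: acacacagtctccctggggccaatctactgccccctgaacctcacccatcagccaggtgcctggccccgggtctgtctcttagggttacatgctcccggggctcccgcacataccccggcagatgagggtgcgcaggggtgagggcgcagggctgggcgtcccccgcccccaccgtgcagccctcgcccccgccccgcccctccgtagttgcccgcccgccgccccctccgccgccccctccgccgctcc

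Among the auxiliary subunits, KCNE4 and KCNMB1 were called higher with PM10 in inflamed hIECs but not called with the cytokines alone. KCNE4 was called higher with PM10 in normal hIECs too. Its level was 6.06 and 5.27 FPKM in normal hIECs, 9.92 and 10.7 in normal hIECs with PM10, 6.06 and 6.51 in inflamed hIECs, and 18.2 and 18.1 in inflamed hIECs with PM10. Both groups with PM10 lay above both without. Inflamed and normal hIECs without PM10 differed by 0.13 (limma adjusted p = 0.18), or by 0.22 (adjusted p = 0.0435) without normal library 1, and with PM10 by 0.77 (adjusted p = 9.28e-05). KCNE4 lies at chr2:223052190-223198399 on the plus strand, and no exon of another gene overlaps it.

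The second question was what PM10 did in normal hIECs. KCNE4 rose and KCNG1 and KCNIP1 fell, 1 and 2 of the 22 tested genes, while 5.51% of all genes tested rose and 3.72% fell. The KCNE4 mean was 1.82 times as high with PM10, a difference of 0.76 (SE 0.08, limma adjusted p = 0.00304). KCNIP1 went to 0.505 of its mean, a difference of -0.85 (SE 0.07, adjusted p = 0.00213), and KCNG1 to 0.658, a difference of -0.53 (SE 0.10, adjusted p = 0.0217). The libraries of these genes did not overlap between the groups, which adds nothing to calls made on the same values and was not counted over all genes. The median difference was -0.02 over the channel genes and 0.06 over all genes tested. A fit to the 4 normal libraries alone called none of the 22 genes and 0.162% of all genes tested. The fit to all libraries called 9.23% of all genes tested. In the former, 6 of the 22 were at an unadjusted limma p under 0.05, a threshold at which all genes were not counted. The KCNG1 call was lost without normal PM10 library 1 (-0.51) or 2 (-0.54). KCNMB1, at -0.37 (adjusted p = 0.0564), was called under median centring (-0.42, adjusted p = 0.0282), and KCNK2, at 0.22 (adjusted p = 0.0803), without normal library 1 (0.31, adjusted p = 0.0149). Smooth muscle markers summed to 1573–1700 FPKM without and 1287–1312 with PM10, and their part was not tested. Of all genes called, 59.7% were higher with PM10, but 42.9% under median centring.

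The third question was what PM10 did in inflamed hIECs. KCNE4, KCNN3, KCNMA1, KCNK1 and KCNMB1 rose and KCNIP1 fell, 5 and 1 of the 22 tested genes, while 6.22% of all genes tested rose and 9.02% fell. KCNE4 stood at 2.89 times its mean, a difference of 1.40 (SE 0.08, limma adjusted p = 0.000156) that was the largest on the log2(FPKM + 1) scale. KCNN3, at a lower level, also stood at 2.89 times its mean (0.72, SE 0.09, adjusted p = 0.00327). KCNMA1 stood at 1.72 times its mean (0.71, SE 0.12, adjusted p = 0.00876), KCNMB1 at 1.43 times (0.39, SE 0.10, adjusted p = 0.0352) and KCNK1 at 1.38 times (0.40, SE 0.07, adjusted p = 0.00999). KCNIP1 went to 0.665 of its mean (-0.38, SE 0.07, adjusted p = 0.0167). In each of the 6 genes the 2 libraries with PM10 lay on one side of the 2 without. The genes were called on these same values, and the separation was not counted over all genes, so it adds nothing to the calls.

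Of these 6 calls, those of KCNE4 and KCNN3 held in every fit that left out 1 library. For KCNN3 this is no check, because the filter was set once on all 8 libraries. KCNN3 reached 1 FPKM only in the 2 inflamed PM10 libraries, so a filter set anew without either would not have tested it. KCNK1 lost its call without either inflamed library or either inflamed PM10 library (0.39 to 0.41, adjusted p of 0.0586 to 0.0673), and so did KCNIP1 (-0.41 to -0.35, adjusted p of 0.0662 to 0.0967). KCNMA1 lost it without inflamed library 1 (0.73, adjusted p = 0.0522), inflamed library 2 (0.68, adjusted p = 0.0605) or inflamed PM10 library 2 (0.66, adjusted p = 0.0641), and with a pseudocount of 0.1 (0.77, adjusted p = 0.0651). KCNMB1 lost it without any 1 of the 6 libraries other than the normal ones (0.31 to 0.47, adjusted p of 0.0569 to 0.175). Median centring called KCNG1 (-0.34) and KCNMB4 (-0.27) lower as well, which made 5 higher and 3 lower. Of all genes called, 40.8% were higher with PM10, but 50.8% under quantile normalization. Mesenchymal markers summed to 2341–2363 FPKM in inflamed hIECs and 1766–1802 with PM10. Neuronal markers summed to 126–127 and 138–142, and smooth muscle markers to 2441–2478 and 2470–2493. The genes of a list did not all move alike. LUM rose (0.51, limma adjusted p = 0.000897), while the other mesenchymal markers were lower. STMN2 and TUBB3 were higher, while SNAP25 fell (-0.38, limma adjusted p = 0.0137) and the other neuronal markers tested were slightly lower. The part of these markers was not tested.

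**Figure D5:**
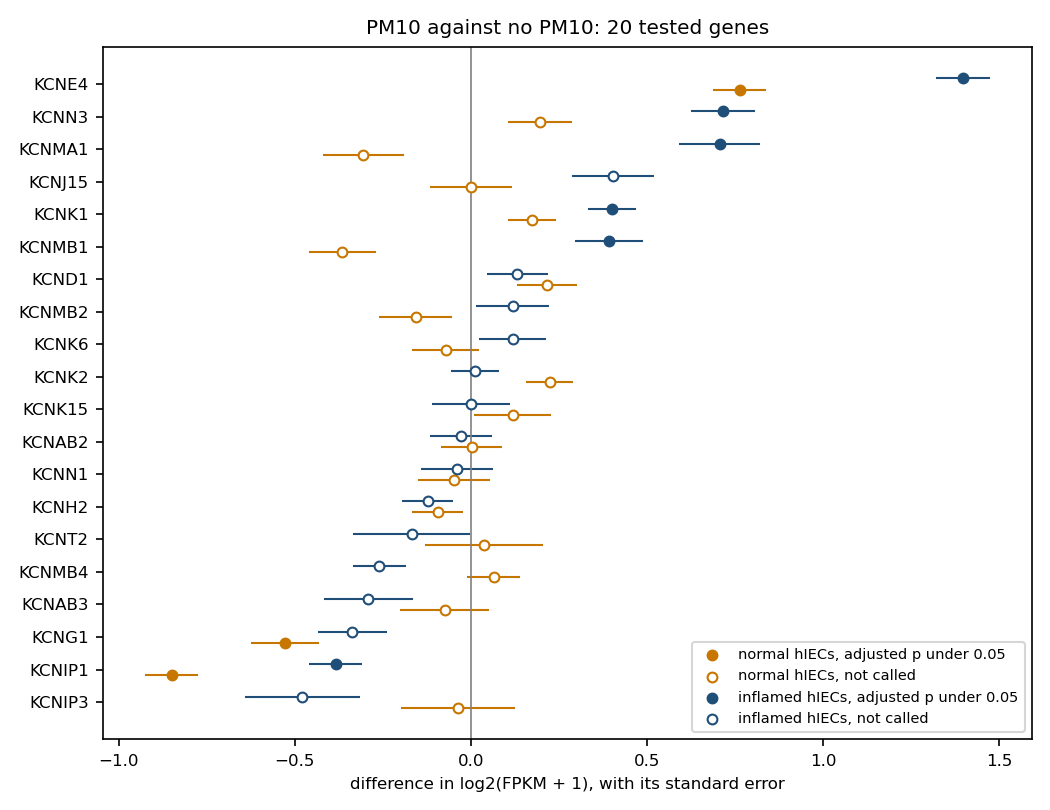
Points give the difference in log2(FPKM + 1) with PM10 against without for each of 20 tested genes, in normal hIECs (orange) and inflamed hIECs (blue). Lines are standard errors and filled points have an adjusted p under 0.05. KCNE4 lies farthest to the right, at 0.76 in normal and 1.40 in inflamed hIECs, and KCNMA1 and KCNMB1 lie on opposite sides of 0 in the 2 states.

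The last question was whether PM10 acted differently in inflamed and normal hIECs, tested as the interaction of PM10 and cytokines. The difference was called positive in 4 of the 22 genes and negative in none, while it was positive in 2.11% and negative in 4.48% of all genes tested. At an unadjusted limma p under 0.05, 7 of the 22 were positive and 1 negative. All genes were not counted at that threshold, so these numbers cannot be set beside the shares above. For KCNMA1 the difference with PM10 was -0.31 (adjusted p = 0.131) in normal and 0.71 in inflamed hIECs, an interaction of 1.01 (SE 0.16, adjusted p = 0.0161). For KCNMB1 it was -0.37 and 0.39, an interaction of 0.76 (SE 0.14, adjusted p = 0.0238). Both BK subunit genes had their lowest group mean in normal hIECs with PM10 and their highest in inflamed hIECs with PM10. KCNE4 rose more in inflamed hIECs, by an interaction of 0.63 (SE 0.11, adjusted p = 0.0197), and KCNIP1 fell less, by 0.46 (SE 0.11, adjusted p = 0.0465). KCNN3 was at 0.52 (adjusted p = 0.0569) and was called under median centring (0.57, adjusted p = 0.0392), while KCNK2, at -0.21 (adjusted p = 0.239), was called negative without normal library 1 (-0.30, adjusted p = 0.0451). The 4 calls were lost when any 1 library of normal hIECs with PM10, inflamed hIECs or inflamed hIECs with PM10 was left out. Fewer of all genes tested were called in those fits as well. Over all alternatives the interaction was 0.85 to 1.49 for KCNMA1 and 0.66 to 0.97 for KCNMB1. It was 0.55 to 0.72 for KCNE4 and 0.41 to 0.59 for KCNIP1. KCNIP1 also lost the call without normal library 2 (0.42, adjusted p = 0.0798). Of all genes called, 32.0% were positive, but 45.7% under median centring and 46.6% under quantile normalization.

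Genes that work with the channels were read from a list of 39, covering pumps, cation-chloride cotransporters with their kinases, and accessory subunits outside the KCN symbols. Of these, 13 were at 0 throughout and 21 were tested. With the cytokines 6 rose and 10 fell without PM10, and 6 rose and 9 fell with PM10, with medians of -0.10 and -0.02. Over all genes tested, 25.9% rose and 30.3% fell without PM10, and 25.8% rose and 39.6% fell with it. With PM10, 1 rose and 3 fell in normal hIECs and 2 rose and 1 fell in inflamed hIECs, beside 5.51% and 3.72%, and 6.22% and 9.02%, of all genes tested. The limma test called 0 of the 21 for the interaction, beside 2.11% of all genes tested called higher and 4.48% called lower. At an unadjusted limma p under 0.05 there were 3, a threshold at which all genes were not counted.

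The Na+/K+ pump subunits did not move alike. ATP1B2, a beta subunit of glia and neurons, fell from a mean of 8.85 FPKM in normal to 1.44 in inflamed hIECs (-2.01, limma adjusted p = 5.18e-06), and FXYD7, a pump regulator of the brain, from 8.61 to 0.602 FPKM (-2.58, adjusted p = 1.82e-06). ATP1B1, the main beta subunit of epithelia, rose with PM10 in both states, by 0.49 in normal (adjusted p = 0.0168) and by 0.46 in inflamed hIECs (adjusted p = 0.0131). DPP6, which assembles with KCND channels as KCNIP1 does, fell by 1.82 (adjusted p = 1.35e-05) without PM10 and by 2.08 (adjusted p = 4.87e-06) with it, and DPP10 fell by 0.52 (adjusted p = 0.0125) and fell by 0.67 (adjusted p = 0.00301). KCND1, the 1 tested KCND pore, did not pass the test in either. Among the cotransporters, SLC12A5, the neuronal K+/Cl- exporter, fell by 0.74 (adjusted p = 0.000184) and 0.47 (adjusted p = 0.00136), SLC12A4 rose by 0.30 (adjusted p = 0.00595) and 0.44 (adjusted p = 0.000743), and SLC12A2, the secretory NKCC1 cotransporter, was between a mean of 1.77 and 2.41 FPKM. The LRRC gamma subunits of the BK channel, LRRC26, LRRC38, LRRC52 and LRRC55, were at 0 throughout.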

How the data were processed

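RNA was sequenced from 8 libraries of 2D hIECs, 2 in each of 4 groups taken from the sample labels. Libraries were poly-A selected and kept no strand. Per the study's methods and the labels, adapters were removed with Cutadapt, reads were trimmed with Sickle at a Phred score of 20 and kept at 50 bases or longer, aligned to GRCh38 with HISAT2 and quantified with StringTie. The FPKM values the authors deposited, 1 per gene and library, carry no read counts, so sequencing depth is unknown and no count test was run. The annotation release was not given in the sources used here.

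Values were transformed to log2(FPKM + 1). Genes were kept where 2 or more libraries reached 1 FPKM, which left 14206. Under R 4.3.3, limma 3.58.1 was run on these with its mean-variance trend. All 8 libraries entered 1 fit, with Benjamini-Hochberg adjustment within each of 5 comparisons. The fit was tested on simulated data. Genes were grouped by symbol prefix. Values in every library are given for genes called with an absolute log2 difference of at least 1 and for the 3 highest of each class. Positions and exon overlaps came from GENCODE 44, in which 95 of the 96 genes had the same symbol. The other, KCNE1B, is listed there as an artifact. Promoters came from RefSeq GRCh38.p14. Alternatives were the pseudocount, the filter, median centring, quantile normalization, protein-coding genes only, no trend, a replicate block, the 2 groups alone and leaving out each library. The members and the lists were chosen with earlier results of these data known. Several genes of the family and of the lists count in the totals but are not reported here by name, and the plots of single genes leave them out.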

Additional observations from a re-analysis of the deposited data

Results flagged for a closer look

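PM10 differences that were not alike in inflamed and normal hIECs by the test of the interaction itself (limma adjusted p under 0.05) were found for 4 channel genes. The interaction was 1.01 for KCNMA1, 0.76 for KCNMB1, 0.63 for KCNE4 and 0.46 for KCNIP1, all on the log2(FPKM + 1) scale. For KCNMA1 and KCNMB1 the difference with PM10 was below 0 in normal hIECs and above 0 in inflamed hIECs, though neither passed the test in normal hIECs. The KCNE4 difference was above 0 in both states, and that of KCNIP1 below 0 in both. With 2 libraries in each group, no group was large enough to look for a library that stands apart.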

How the results depend on the processing

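Of 42 calls of a channel gene in a comparison, 0 reversed and 28 were lost under no alternative that gave them a value. For 5 of these 28 (KCNJ15 and KCNN3 in 2 comparisons each and KCNK6 in 1), the filter of 1 FPKM in at least 4 libraries gave no value, and that filter left 10, 14 and 5 calls in place of 12, 17 and 6 for the cytokines without PM10, the cytokines with PM10 and PM10 in inflamed hIECs. The fit to the 2 groups alone found no PM10 call in normal hIECs, 0 of 22 against 3 of 22 over all libraries (6 at an unadjusted limma p under 0.05). Of all genes tested it called 0.162% against 9.23%, and the cause was not tested. With no filter on low values, 48 genes were tested and 23 were called for the cytokines without PM10 in place of 12, and 28 with PM10 in place of 17, beside 41.8% and 48.9% of all 21400 genes. Those added were all below the minimum for testing and included KCNH1, KCNS3, KCNJ4 and KCNJ6. Leaving out a library left 1 in its group, and the filter stayed as set on all 8 libraries, so no counts of calls are given for those fits. Without either inflamed or either inflamed PM10 library, fewer channel genes were called for PM10 in inflamed hIECs. Fewer of all genes tested were called there as well, and the cause was not tested. Replicate numbers did not pair the libraries (correlations of -0.002 to 0.079 between same-numbered deviations), and the replicate block gave 3, 13, 17, 7 and 3 calls in the 5 comparisons, in the order of PM10 in normal hIECs, the cytokines without and with PM10, PM10 in inflamed hIECs and the interaction. It added KCNMB4 for PM10 in inflamed hIECs (-0.26, adjusted p = 0.0476). The KCNIP1 interaction was lost with the block (0.46, adjusted p = 0.0708), with a pseudocount of 0.1 (0.41, adjusted p = 0.122) and with no filter (0.46, adjusted p = 0.0688). The KCNMB1 call for PM10 in inflamed hIECs was lost with no filter (adjusted p = 0.0529) and with the 2 groups alone (adjusted p = 0.0586). Genes under about 0.2 FPKM cannot be told from 0, and FPKM gives no counts from which an interval could be set.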
